A study of Mus musculus with 14 samples.

Results

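The interferon-inducible GTPases of the Gbp and Irg families were followed as 8 named genes in LLC1 tumours, which grow from a cell line of mouse Lewis lung carcinoma. The genes were Gbp2 (ENSMUSG00000028270.13), Gbp3 (ENSMUSG00000028268.15), Gbp5 (ENSMUSG00000105504.5), Gbp7 (ENSMUSG00000040253.16), Irgm1 (ENSMUSG00000046879.8), Irgm2 (ENSMUSG00000069874.8), Igtp (ENSMUSG00000078853.9) and Iigp1 (ENSMUSG00000054072.13). They were taken as a named list, matched by symbol with no threshold on their values, and all 8 of the 8 were found among the 21152 genes of the table. All 8 also passed the filter on low values, and none was at the lowest value of the table in any library.

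Mice carrying LLC1 tumours were given DMSO as vehicle (4 libraries), MYCi975 at 50 mg/kg (4 libraries), TMP195 at 50 mg/kg (3 libraries) or both compounds together (3 libraries) for 16 days, and RNA of the tumour suspension was sequenced. MYCi975 inhibits the transcription factor MYC, TMP195 inhibits class IIa histone deacetylases, and the study asks which transcriptional changes the drugs bring about in vivo. The labels call the material bulk tumour cells and say that RNA came from an enriched tumour population. The doses within the combination and the strain, sex and age of the mice are not given in the sources used. Whether every library stems from a separate mouse is not stated either, so the p-values reflect spread among libraries that could partly be technical.

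Guanylate-binding proteins, encoded by the Gbp genes, and immunity-related GTPases, encoded by the Irg genes, are large cytosolic GTPases that host cells make after exposure to interferon gamma and, to a lesser degree, type I interferons. They are known for coating and breaking the vacuoles in which bacteria and the parasite Toxoplasma live, and guanylate-binding proteins also help start inflammasome signalling. Among Irg proteins, Iigp1 (Irga6) is an effector that loads onto vacuoles, while Irgm1, Irgm2 and Igtp (Irgm3) are regulators that sit on the cell's own membranes and keep the effectors inactive there. Interferon gamma acts through JAK kinases on GAS elements in promoters, and through IRF1, which binds interferon-stimulated response elements (ISRE). In a tumour these transcripts can come from cancer cells as well as from leukocytes, vessels and stroma.

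The promoters of the members show where such elements lie, and for that reason the stretch around them is printed. RefSeq windows of GRCm38.p6, each running from 250 bases before a gene's start to 50 after it, were found for 7 of the 8 members by symbol, in 8 windows, and not for Iigp1. The ISRE was searched as GAAANNGAAA on both strands (TTTCNNTTTC on the other), and GAS as the palindrome TTCNNNGAA. Sequences are written 5′ to 3′ on the gene's own strand, end before the start of the gene, and carry the matches in capitals.
Gbp2, chr3:142620574-142620643, plus strand: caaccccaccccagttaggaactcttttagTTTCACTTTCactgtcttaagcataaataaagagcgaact
Gbp3, chr3:142559969-142560043, plus strand: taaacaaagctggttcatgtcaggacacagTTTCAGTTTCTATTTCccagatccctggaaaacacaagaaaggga
Gbp5, chr3:142496739-142496808, plus strand: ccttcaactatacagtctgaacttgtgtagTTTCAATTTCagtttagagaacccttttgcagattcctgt
Gbp7, chr3:142530200-142530322, plus strand: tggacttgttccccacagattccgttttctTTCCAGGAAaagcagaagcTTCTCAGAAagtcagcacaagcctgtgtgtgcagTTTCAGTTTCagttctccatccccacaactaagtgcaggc
Irgm1, chr11:48871421-48871480, minus strand: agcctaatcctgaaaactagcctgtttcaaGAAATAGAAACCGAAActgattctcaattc
Igtp, chr11:58199481-58199555, plus strand: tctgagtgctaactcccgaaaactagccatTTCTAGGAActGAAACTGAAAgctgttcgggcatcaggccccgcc
Irgm2, chr11:58214872-58214952, plus strand: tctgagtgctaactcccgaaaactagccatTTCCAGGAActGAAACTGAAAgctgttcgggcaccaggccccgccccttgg

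An ISRE match stood in 7 of the 8 member windows, covering 7 of 7 genes, where 3.44% of all 32851 windows of the same length hold one. A GAS match stood in 4 of the 8 windows, in Gbp5, Gbp7, Igtp and Irgm2, against 8.3% of all windows, and both motifs stood in these 4 against 0.454%. The members are not alone in this. Of other interferon-inducible GTPase genes 5 had a window, and an ISRE match stood in 4, a GAS match in 3 and both in 3. No ISRE match overlapped a GAS match. In Gbp3 and in Irgm1 a pair of overlapping ISRE matches forms 1 run of capitals. In Gbp5 the GAS matches lie outside the stretch printed, at 245 to 237 and at 52 to 44 bases before the start.

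Igtp and Irgm2 share the same arrangement, with the GAS match ending 2 bases before the ISRE match. Over 75 aligned bases their printed stretches differ at 2, and the longest stretch that both windows hold is 61 bases. The same spacing of 2 bases was found in Tgtp1 and Tgtp2, Irg effectors that are not among the 8. In the Gbp genes the ISRE match is read on the other strand, as TTTC repeats. In the 3 Irg members with a window it is read on the gene's own strand. Gm12250, an interferon-inducible GTPase gene outside the 8, differs, with its ISRE matches read on the other strand. There 6 bases lie between the nearest ISRE and GAS matches. Such matches describe letters only, and binding of any factor was not measured.

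Gene order was read for 7 of the members, Iigp1 left out. In the RefSeq gene order Gbp5, Gbp7 and Gbp3 follow each other with no protein-coding gene between them, and Gbp2b alone stands between Gbp3 and Gbp2. Igtp and Irgm2 are direct neighbours, and 141 protein-coding genes lie between Irgm1 and Igtp. Close copies also mean shared sequence, which bears on how far single genes can be told apart. Over the GENCODE M21 transcripts, 15.9% of the 31-base words of Igtp occur in Irgm2 too, and 9.16% of those of Irgm2 occur in Igtp. Gbp7 shares 14.7% of its words with any other gene, 10.8% with the predicted gene Gm43802, while for Gbp2, Gbp3, Gbp5, Irgm1 and Iigp1 the share lies between 2.2% and 6.9%. Values of Igtp, Irgm2 and Gbp7 as single genes may therefore be less certain than the others, which was not tested.

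Values are normalised expression after a variance-stabilising transformation, on a log2 scale whose lowest value, 4.047, stands for no reads. They are not per length, so levels are compared between libraries and not between genes. Depth is unknown, and between 880 and 2954 of the genes were at the lowest value in a library. Of the carcinoma markers, the keratin genes Krt8 and Krt18 were present in all libraries (7.86 to 8.65 and 7.84 to 8.88), while Epcam was at the lowest value in 4 libraries and Krt19 in 2. Leukocyte markers were present as well, with Ptprc, the gene of CD45 on all leukocytes, at 9.65 to 12.07. The RNA was thus a mixture of cells, and fewer cells of a type and less RNA per cell cannot be told apart.

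Gbp2, a guanylate-binding protein that targets vacuoles of intracellular pathogens, was 11.42, 10.56, 11.54 and 10.53 in vehicle replicates 1 to 4. With MYCi975 it was 11.19, 11.76, 9.88 and 10.71, with TMP195 10.50, 10.90 and 11.96, and with the combination 9.06, 10.90 and 10.61. The highest library, TMP195 replicate 3, and the lowest, combination replicate 1, lay 2.89 log2 units or 7.44-fold apart. Combination replicate 1 stood below every other library, and the other combination libraries lay within the range of vehicle.

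Gbp3 was 9.35, 8.65, 9.58 and 8.86 with vehicle, 9.41, 9.75, 8.15 and 9.07 with MYCi975, 8.42, 8.88 and 10.09 with TMP195, and 7.32, 8.91 and 8.38 with the combination. Here 2 of the 3 combination libraries lay below all vehicle libraries and the remaining 1 lay among them. Gbp7 was 9.49, 8.70, 9.76 and 8.89 with vehicle, 9.38, 10.08, 8.30 and 9.16 with MYCi975, 8.86, 9.09 and 10.07 with TMP195, and 7.65, 9.08 and 8.84 with the combination. Its order of libraries resembled that of Gbp2, with the same library lowest.

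Gbp5, a guanylate-binding protein known for promoting NLRP3 inflammasome assembly, was 8.49, 7.79, 8.69 and 7.92 with vehicle. It was 8.61, 9.57, 7.07 and 7.67 with MYCi975, 7.87, 7.99 and 9.37 with TMP195, and 6.75, 8.01 and 7.42 with the combination. MYCi975 replicate 2 was the highest of all 14 libraries and MYCi975 replicate 3 the second lowest, so a single treatment group spanned most of the gene's range of 2.82 log2 units (7.05-fold).

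Irgm1, a regulator required for control of mycobacteria in mice, was 9.38, 8.74, 9.53 and 8.63 with vehicle, 9.22, 9.61, 8.30 and 8.79 with MYCi975, 8.48, 8.93 and 9.56 with TMP195, and 7.66, 8.86 and 8.65 with the combination. Irgm2 was 8.55, 7.75, 8.47 and 7.93 with vehicle, 8.65, 8.71, 7.43 and 7.94 with MYCi975, 7.79, 8.43 and 8.76 with TMP195, and 7.05, 8.15 and 7.77 with the combination. Igtp was 8.86, 8.33, 9.06 and 8.41 with vehicle, 8.83, 9.11, 7.88 and 7.88 with MYCi975, 8.21, 8.53 and 9.21 with TMP195, and 7.52, 8.44 and 8.07 with the combination. The 3 regulators had the narrowest ranges of the 8 genes, 1.95 (3.87-fold), 1.71 (3.28-fold) and 1.69 log2 units (3.22-fold). In each of them the lowest library was again combination replicate 1.

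Iigp1, the effector, was 10.15, 9.17, 10.04 and 9.64 with vehicle, 10.23, 10.11, 8.63 and 9.52 with MYCi975, 9.34, 9.71 and 10.26 with TMP195, and 8.05, 9.87 and 9.30 with the combination. Its range was 2.22 log2 units (4.65-fold). TMP195 replicate 3, MYCi975 replicate 1 and vehicle replicate 1, from 3 different groups, were its highest libraries.

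**Figure D1:**
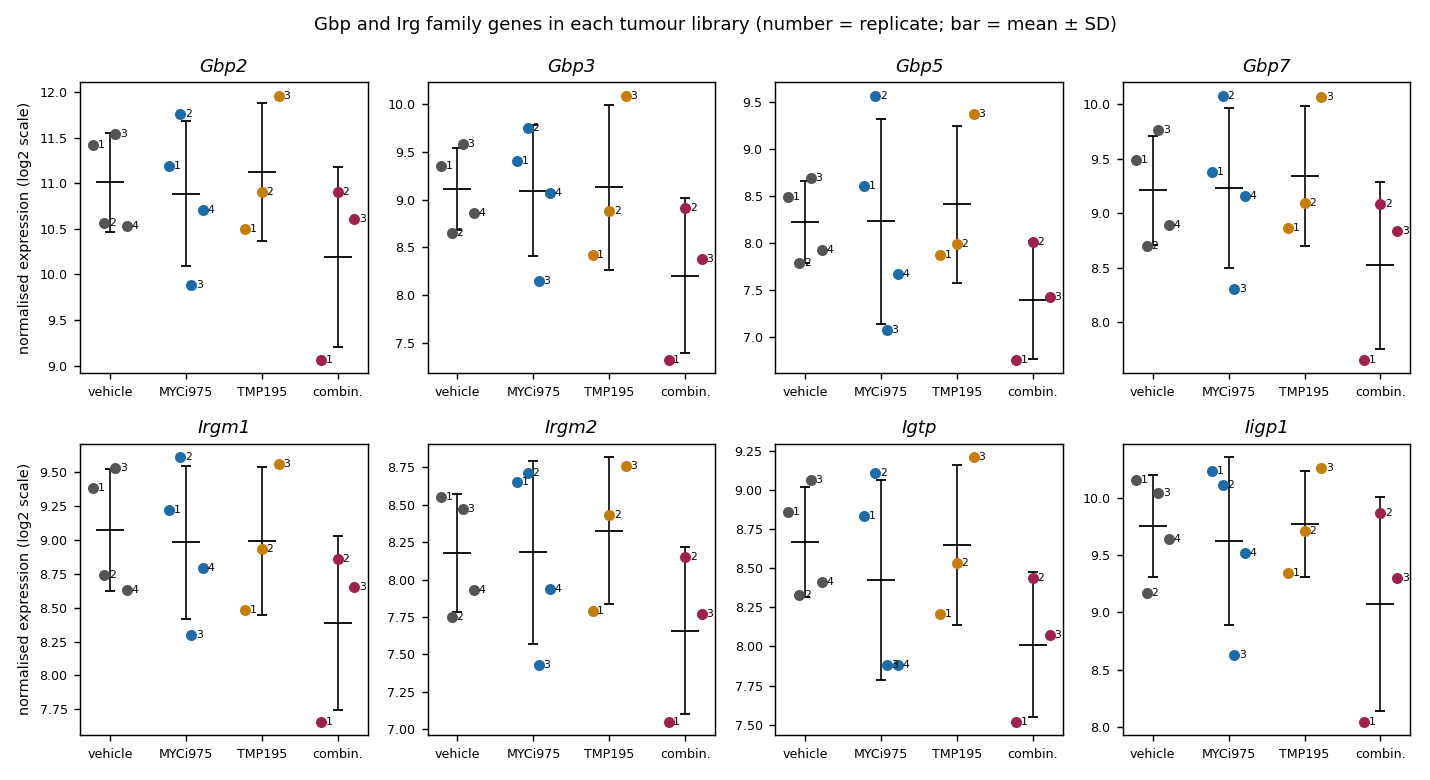
Each panel shows 1 gene, with normalised expression (log2 scale) on the y axis, the 4 groups on the x axis, 1 point per library labelled by its replicate number, and the mean ± SD as a bar. In all 8 panels combination replicate 1 is the lowest point, and the points of each treatment overlap those of vehicle.

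The order of libraries was nearly the same in every member. The 5 highest libraries of each of the 8 genes were TMP195 replicate 3, MYCi975 replicates 1 and 2, and vehicle replicates 1 and 3, which come from 3 of the 4 groups. TMP195 replicate 3 was highest in 5 genes and MYCi975 replicate 2 in 3. At the other end, combination replicate 1 was lowest in 8 of 8, and MYCi975 replicate 3 was second lowest in 7, the exception being Igtp, in which MYCi975 replicate 4 took that place.

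With each gene centred on its mean over the 14 libraries, the mean of the 8 members was 0.92 in TMP195 replicate 3, 0.85 in MYCi975 replicate 2, 0.59 in vehicle replicate 3, 0.47 in vehicle replicate 1 and 0.45 in MYCi975 replicate 1. It was 0.07 in TMP195 replicate 2, 0.04 in combination replicate 2, -0.14 in vehicle replicate 4, -0.15 in MYCi975 replicate 4, -0.28 in vehicle replicate 2, -0.31 in TMP195 replicate 1 and -0.36 in combination replicate 3. The lowest means were -0.79 in MYCi975 replicate 3 and -1.36 in combination replicate 1. By group the mean ± SD was 0.16 ± 0.44 in the 4 vehicle libraries, 0.09 ± 0.71 in the 4 of MYCi975, 0.23 ± 0.63 in the 3 of TMP195 and -0.56 ± 0.72 in the 3 of the combination. In order, TMP195, vehicle and MYCi975 differed by much less than the spread within any of them, and the combination stood lowest by about the size of its own SD.

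These genes varied more inside the groups than most genes did. The within-group SD was 0.77 for Gbp2, 0.69 for Gbp3, 0.80 for Gbp5, 0.66 for Gbp7, 0.55 for Irgm1, 0.52 for Irgm2, 0.51 for Igtp and 0.66 for Iigp1. The median over all 13711 genes tested was 0.24, and the members stood between percentiles 94.7 and 99.3. The share of a member's variance that lay between the groups was 18.6% to 29%, with a median of 23% against 20.2% over all genes tested. The members' spread between libraries was thus wide beside that of other genes, and the share of it that lay between groups was near the background.

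**Figure D2:**
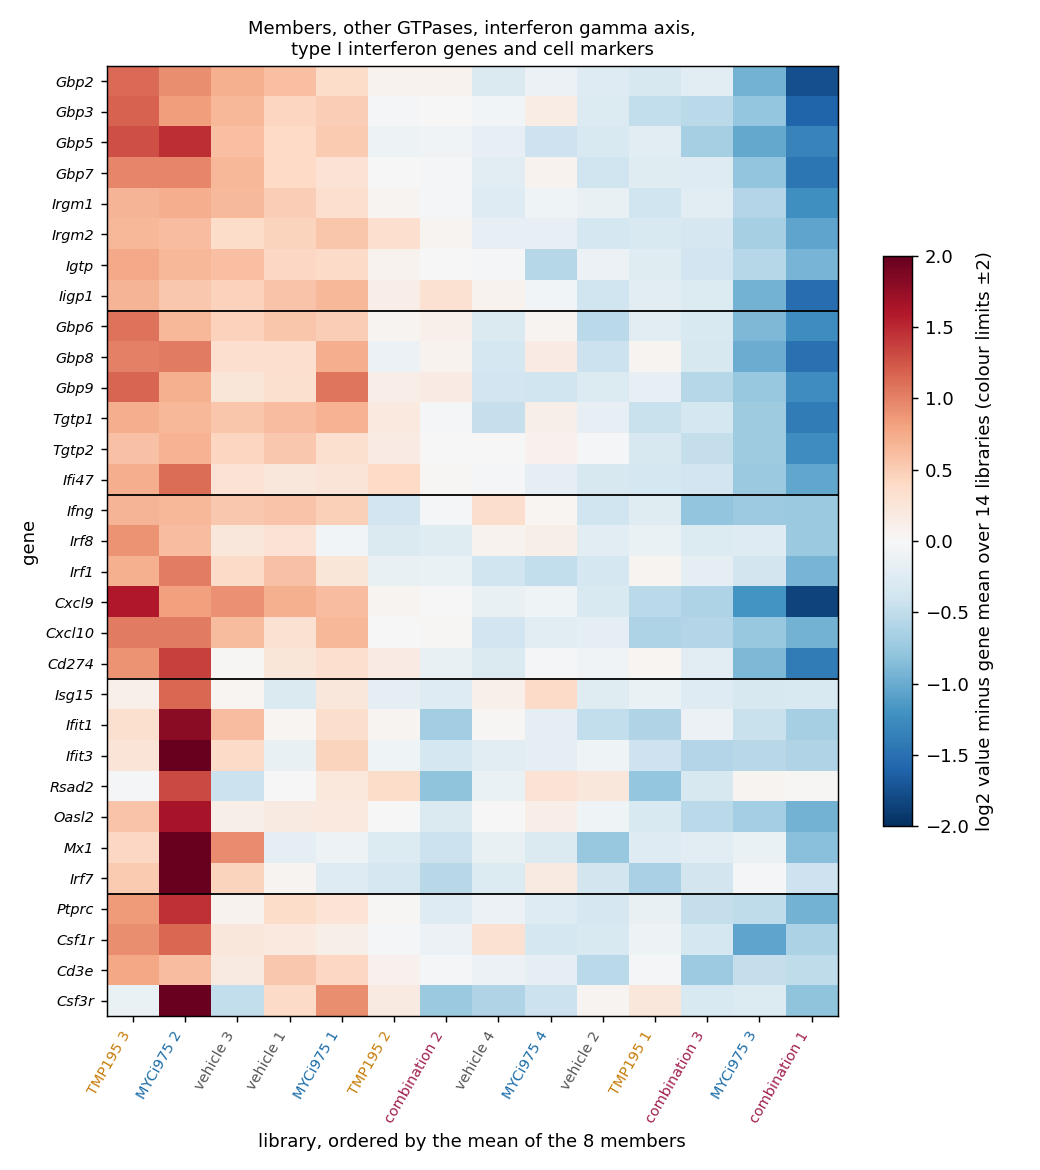
Colours give the log2 value of a gene minus its mean over the 14 libraries, saturated at 2 in either direction, with libraries as columns ordered by the mean of the 8 members. Rows are the 8 members, 6 other interferon-inducible GTPases, 6 genes of the interferon gamma axis, 7 type I interferon genes and 4 cell markers, drawn from the gene lists. The first 3 blocks shade together from TMP195 replicate 3 (member mean 0.92) to combination replicate 1 (-1.36), while the type I block is reddest in MYCi975 replicate 2, the second column.

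With MYCi975 alone the members lay close to vehicle. Their log2 differences (mean of MYCi975 minus mean of vehicle) had a median of -0.05 and ran from -0.24 in Igtp to 0.02 in Gbp7, with 3 genes higher and 5 lower. For Gbp2 the difference was -0.13 (SE 0.45, 95% interval -1.08 to 0.82) and for Gbp5 0.01 (SE 0.47, interval -0.98 to 1.0). In limma's test 0 of the 8 passed an adjusted p of 0.05 and 0 had an unadjusted p under 0.05. Over all genes tested, 0% passed after adjustment and 3.33% had such an unadjusted p. The values of all 8 overlapped those of vehicle, and 1.74% of all genes tested did not overlap. The intervals leave room for a change by up to 0.40 to 1.0 upwards and 0.66 to 1.08 downwards, depending on the gene. The sign rested on single libraries, since the median was -0.29 without MYCi975 replicate 2 and 0.23 without MYCi975 replicate 3.

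With TMP195 alone the median difference was 0.06, from -0.08 in Irgm1 to 0.19 in Gbp5, with 6 genes higher and 2 lower. Irgm2 differed by 0.15 (SE 0.34, 95% interval -0.56 to 0.87) and Iigp1 by 0.02 (SE 0.42, interval -0.87 to 0.91). None of the 8 was called by limma, with 0 at an unadjusted p under 0.05, against 0% of all genes tested after adjustment and 2.78% before it. All 8 overlapped vehicle, where 4.27% of genes tested did not. The median was -0.30 without TMP195 replicate 3 and 0.37 without TMP195 replicate 1, so no direction was held.

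With the combination all 8 members averaged lower than with vehicle, and none passed the test. The median log2 difference was -0.69, from -0.52 in Irgm2 to -0.91 in Gbp3, where the median over all genes tested was -0.00. Among guanylate-binding proteins, Gbp3 differed by -0.91 (SE 0.44, 95% interval -1.84 to 0.02, adjusted p = 0.992 by limma), Gbp5 by -0.83, Gbp2 by -0.82 and Gbp7 by -0.69. Among Irg genes, Irgm1 differed by -0.68 (SE 0.35, interval -1.43 to 0.06), Iigp1 by -0.67, Igtp by -0.65 and Irgm2 by -0.52. In limma's test 0 of 8 passed after adjustment, 0 had an unadjusted p under 0.05, and all 8 intervals included 0. Of all genes tested 0% passed after adjustment, 3.43% had an unadjusted p under 0.05, and 6.08% did not overlap between the groups. All 8 members overlapped. The count at an unadjusted p under 0.05 depended on the fit. It was 4 of 8 when only the groups compared were fitted, 3 with library weights and 5 without combination replicate 2. In none of these did a member pass after adjustment. The share of all genes under that p was not computed for these fits, so the counts have no background beside them.

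The size of this difference rested on 1 library. Without combination replicate 1 the median was -0.29, with all 8 members between -0.51 and -0.16, and without combination replicate 2 it was -1.02. The 8 genes moved together between libraries, so their 8 lower means are not independent observations. Cell markers also differed in mean, with 0 called by limma in any of their lists. All 5 of 5 leukocyte markers averaged lower with the combination (median difference -0.52), and their mean centred level ran from -0.82 to -0.37 in the combination and from -0.39 to 0.25 with vehicle, so the groups overlapped. Of the macrophage markers 8 of 10 averaged lower (median -0.44), and of the T and NK cell markers 8 of 8 tested (median -0.45). Neutrophil markers averaged lower in 6 of 6 (median -0.32) and skeletal muscle markers in 3 of 3 (median -1.20). Endothelial markers averaged lower in 5 of 6 (median -0.21), dendritic cell markers in 3 of 4 (median -0.12) and epithelial and carcinoma markers in 2 of 4 (median 0.09). The macrophage, T and NK cell, endothelial, and epithelial lists each held 1 marker with an unadjusted p under 0.05, against 3.43% of all genes tested. Fibroblast markers averaged higher in 5 of 7 (median 0.18), 2 of them with an unadjusted p under 0.05. Without combination replicate 1 the fibroblast markers held no such direction, with 3 higher and 4 lower (median -0.17). The mean centred level of the muscle markers ran from -1.97 to 0.47 in the combination and from -1.82 to 2.80 with vehicle, and its part in the members' difference was not tested. With Ptprc as a covariate in the fit the median difference of the members was -0.19, with all 8 between -0.36 and -0.09. The part of leukocyte content in the members' difference was not tested beyond this covariate.

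**Figure D3:**
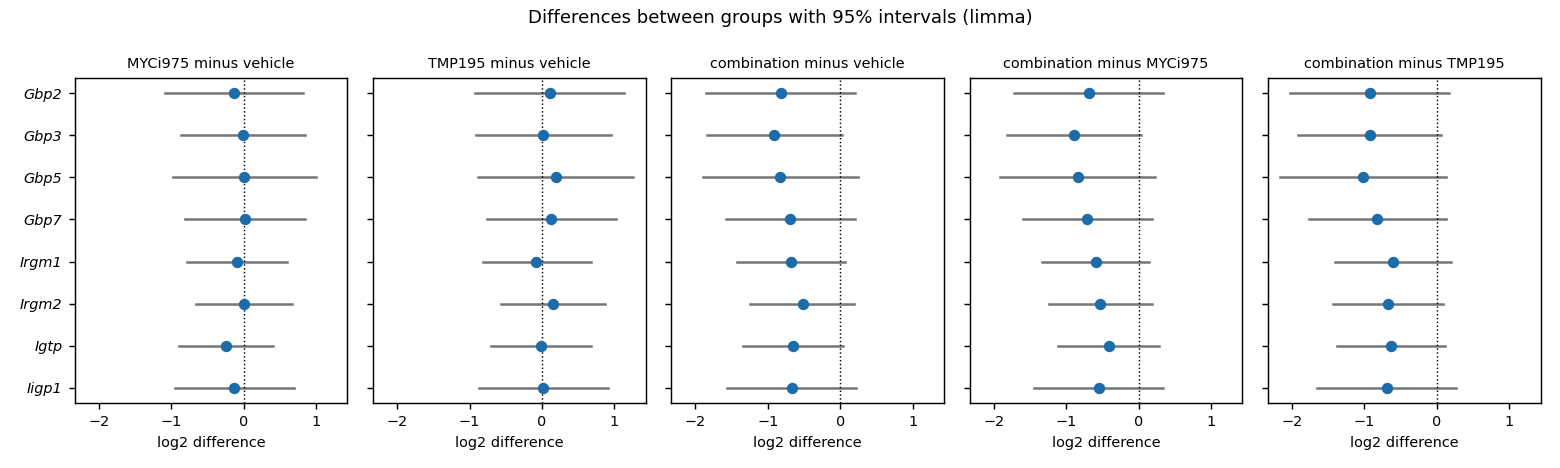
Points are limma's log2 differences for the 8 members (rows) in 5 comparisons (panels), and lines are 95% intervals. With MYCi975 and TMP195 the points lie around 0, and in the 3 panels with the combination all points lie below 0 while all 8 lines reach past 0.

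The combination also averaged below each single agent. Against MYCi975 the median was -0.64, from -0.41 in Igtp to -0.89 in Gbp3, with 0 of 8 called by limma and 0 at an unadjusted p under 0.05, against 0% and 8.17% of all genes tested. Against TMP195 it was -0.76, from -0.60 in Irgm1 to -1.02 in Gbp5, with 0 of 8 called and 0 at an unadjusted p under 0.05, against 0% and 4.4%. The interaction, which asks whether the combination departs from the sum of both single effects, had a median of -0.74, from -0.40 in Igtp to -1.03 in Gbp5. It too was called in 0 of 8, with 0 at an unadjusted p under 0.05, against 0% and 4.78% of genes tested. These comparisons share the combination libraries with the one against vehicle and are not independent of it. Without combination replicate 1 the medians were -0.22, -0.38 and -0.30, and with Ptprc as a covariate they were 0.11, -0.02 and 0.33. Without MYCi975 replicate 3, 7 of 8 members had an unadjusted p under 0.05 against MYCi975. Without combination replicate 2, 7 of 8 had one against TMP195, with 0 called after adjustment in either. These were the highest counts over the alternative fits, and without combination replicate 1 the count was 0 in both comparisons. The share of all genes under that p was not computed for these fits.

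**Figure D4:**
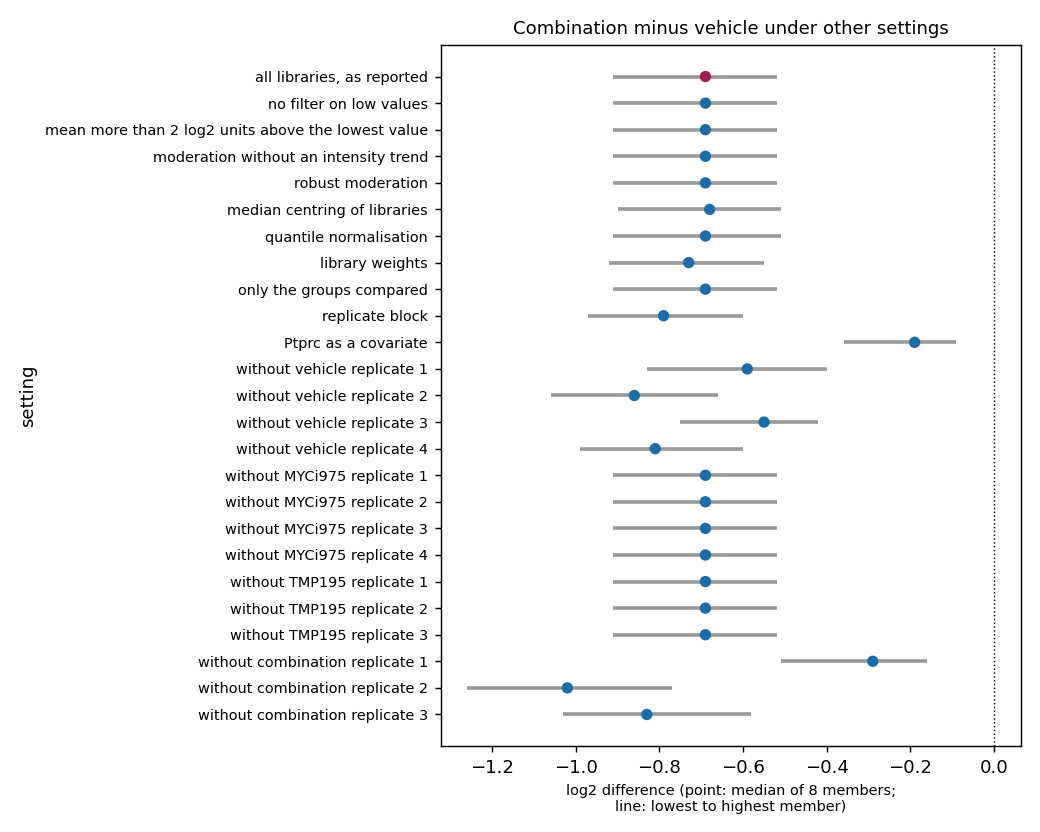
Each row is 1 setting of the fit for combination minus vehicle, the point is the median log2 difference of the 8 members, and the line runs from the lowest to the highest member. The median is -0.69 as reported, -0.29 without combination replicate 1, -1.02 without combination replicate 2 and -0.19 with Ptprc as a covariate, and in no row does a line reach 0.

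Between libraries the 8 genes moved almost as 1. Over the 28 pairs of members, Pearson's r across the 14 libraries was 0.88 to 0.99 with a median of 0.94. After the group means were subtracted it was 0.86 to 0.99, also with a median of 0.94, and without TMP195 replicate 3 and combination replicate 1, the highest and lowest libraries, it was 0.86 to 0.99 with a median of 0.93. The first principal component of the members within groups held 94.7% of their variance. The closest pairs within groups were Gbp2 with Gbp7 and Gbp2 with Irgm1 (both 0.99), genes on different chromosomes in the second case, and the loosest was Gbp5 with Iigp1 (0.86). Igtp and Irgm2, the neighbours with near-identical promoter stretches, were at 0.94, the median. These correlations are descriptions over the same 14 libraries and share their scaling.

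The members followed the common pattern at different steepness. Per log2 unit of the mean of the other 7, within groups, Gbp2 moved by 1.25, Gbp5 by 1.23, Gbp3 by 1.09 and Gbp7 by 1.04. Iigp1 moved by 0.99, Irgm1 by 0.84, Irgm2 by 0.78 and Igtp by 0.74. The lowest slopes were thus those of the regulators Irgm1, Irgm2 and Igtp, while Iigp1 lay close to Gbp7. The mean of the other 7 is not the same for each gene, so close slopes cannot be ranked. The mean of the 4 Gbp genes spanned 2.68 log2 units over the libraries and that of the 4 Irg genes 1.88, with r = 0.98 between them. The scale understates changes near its lowest value, so slopes of genes at different levels are described and not tested.

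Departures from the pattern were small. Gbp5 in MYCi975 replicate 2 stood 0.51 above what the other members gave, Igtp in MYCi975 replicate 4 stood at -0.40, and Iigp1 in MYCi975 replicate 2 at -0.30. The largest departure of any of the remaining 5 genes was 0.27, that of Gbp3 in MYCi975 replicate 4. So the inflammasome-linked Gbp5 and the effector Iigp1 departed in opposite directions in the same library.

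As a list, other interferon-inducible GTPases had a mean that followed that of the members. The list held 19 names, of which 16 were in the table and 14 passed the filter. Among them were further guanylate-binding proteins, the Irg effectors Tgtp1 and Tgtp2, the very large GTPase gene Gvin1 and the Mx genes. The Mx proteins are antiviral GTPases induced by type I interferons. With the combination 13 of the 14 averaged lower than vehicle, with a median of -0.52, and 0 were called by limma. The exception was Gbp10, at 0.07. Without combination replicate 1 the median was -0.22. Tgtp2 had the smallest p of the list (difference -0.80, 95% interval -1.49 to -0.11, adjusted p = 0.992 by limma) and was the only one of the 14 with an unadjusted p under 0.05. Tgtp1, its close copy, differed by -0.74. With TMP195 10 of the 14 averaged higher (median 0.23), and with MYCi975 9 did (median 0.06, or -0.15 with 2 higher without MYCi975 replicate 2), again with 0 called. Over TMP195 replicates 1 to 3 the mean centred level of this list was -0.22, 0.17 and 0.68, against a mean of 0.04 with vehicle. The mean of these 14 followed that of the members with r = 0.98 over the libraries and Spearman's rho = 0.95, while Mx1 alone gave r = 0.68.

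Of the ligand, Ifng, transcript levels were low, between 4.43 and 5.90. Ifng was 5.80, 4.83, 5.76 and 5.57 with vehicle, 5.70, 5.89, 4.50 and 5.27 with MYCi975, 4.99, 4.84 and 5.90 with TMP195, and 4.48, 5.19 and 4.43 with the combination. It differed between combination and vehicle by -0.79 (SE 0.34, 95% interval -1.52 to -0.06, adjusted p = 0.992 by limma), the only one of its list with an unadjusted p under 0.05. The groups overlapped at combination replicate 2. Over the libraries the member mean followed Ifng with r = 0.88 (rho = 0.92, within groups 0.86).

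Irf1, a transcription factor of the interferon response, was 9.52, 8.58, 9.31 and 8.54 with vehicle, 9.17, 9.96, 8.57 and 8.44 with MYCi975, 8.99, 8.78 and 9.65 with TMP195, and 8.0, 8.80 and 8.73 with the combination. Its lowest library was combination replicate 1 and its highest MYCi975 replicate 2, as in Gbp5, and r with the member mean was 0.90. With the combination Irf1 differed from vehicle by -0.48 (SE 0.35, 95% interval -1.23 to 0.27), which did not pass limma's test. Over the 9 genes of interferon gamma signalling, which also hold the receptors, the JAK kinases, Irf8 and the feedback inhibitor Socs1, 9 averaged lower with the combination (median -0.31) and 0 were called, while the receptor gene Ifngr1 (-0.06) and Jak1 (-0.04) were close to 0. Irf8, a myeloid transcription factor, differed by -0.51. With MYCi975 6 of 9 averaged higher (median 0.05), and with TMP195 6 of 9 (median 0.12). In TMP195 replicates 1 to 3 the mean centred level of the list was -0.08, -0.07 and 0.51. Only replicate 3 stood above the vehicle mean of 0.05. Without MYCi975 replicate 2, 2 of 9 averaged higher with MYCi975 (median -0.15). Without combination replicate 1, 7 of 9 averaged lower with the combination (median -0.16).

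Chemokines and effectors induced by interferon gamma gave the closest match of the lists, with r = 0.99 (rho = 0.97) over the 10 genes tested. Cxcl9, a chemokine that attracts T cells, was 6.54 in combination replicate 1, its lowest library, and highest in TMP195 replicate 3, and differed between combination and vehicle by -1.11 (adjusted p = 0.992 by limma). In that comparison 9 of the 10 averaged lower (median -0.54), and 0 were called. Nos2, the inducible nitric oxide synthase, had the smallest p of the list with TMP195 (0.89, adjusted p = 1 by limma). With TMP195 8 of the 10 averaged higher (median 0.14), with MYCi975 6 (median 0.03), and 0 were called in either. Over TMP195 replicates 1 to 3 the mean centred level of the list was -0.18, 0.14 and 0.85, against a mean of 0.06 with vehicle. Without MYCi975 replicate 2, 2 of the 10 averaged higher with MYCi975 (median -0.21). Without combination replicate 1, 8 of the 10 averaged lower with the combination (median -0.29).

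Type I interferon genes followed the members with an r of 0.85 for the 7 signalling genes and 0.78 for the 12 antiviral genes (rho = 0.88 for both), and differences between lists in r were not tested. For the antiviral genes r was 0.84 without combination replicate 1 and MYCi975 replicate 2. Their mean centred level was 1.32 in MYCi975 replicate 2, while in the other 13 libraries none exceeded 0.35. This peak was not particular to them. MYCi975 replicate 2 was also highest for leukocyte (1.18), neutrophil (1.49), macrophage (0.77), T and NK cell (0.69) and endothelial markers (0.34). It was highest for dissociation and immediate early genes too (1.19), but not for dendritic cell, fibroblast, epithelial or skeletal muscle markers. Mx1 was 8.71 in that library and 5.59 to 7.38 in the others. With MYCi975 10 of 12 averaged higher (median 0.30), Isg15, a ubiquitin-like antiviral protein, by 0.46. Without MYCi975 replicate 2, 4 of 12 averaged higher (median -0.12) and Isg15 by 0.19. With TMP195 3 of 12 averaged higher (median -0.04). With the combination 12 of 12 averaged lower (median -0.51), Xaf1 by -0.52, and 0 were called in any of these comparisons by limma. In type I signalling, 7 of 7 genes averaged higher with MYCi975 (median 0.09), or 2 of 7 without MYCi975 replicate 2 (median -0.01), 3 of 7 with TMP195 (median -0.01) and 0 of 7 with the combination (median -0.36), Stat2 by -0.50 and the receptor gene Ifnar2 by -0.34, and 0 were called.

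Autophagy and inflammasome genes are partners of these GTPases. ATG8 conjugation helps place Irg and Gbp proteins on vacuoles. Its 13 genes showed no common direction, with 7 higher and 6 lower in the combination against vehicle (median 0.00), and r with the member mean was 0.60, or 0.30 without TMP195 replicate 3 and MYCi975 replicate 2. Atg3, the conjugating enzyme of the ATG8 proteins, differed by -0.45 (adjusted p = 0.992 by limma), and Atg7, the activating enzyme, by 0.28 with MYCi975. With MYCi975 7 of 13 were higher (median 0.09), and with TMP195 9 of 13 (median 0.08).

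Of the 8 inflammasome genes 8 averaged lower with the combination (median -0.29, or -0.15 without combination replicate 1). Casp4, the caspase-11 gene whose protein senses cytosolic lipopolysaccharide, was 7.66, 7.34, 7.40 and 7.50 with vehicle and 6.62, 6.93 and 7.03 with the combination. All combination values lay below all vehicle values, with a difference of -0.61 (SE 0.23, 95% interval -1.09 to -0.13, adjusted p = 0.992 by limma). Of all genes tested, 6.08% did not overlap between these groups, counting both directions. Gsdmd, the pore-forming effector of pyroptosis, differed by 0.33 with TMP195. With TMP195 7 of 8 averaged higher (median 0.17) and with MYCi975 3 of 8 (median -0.07), and 0 of the list were called in these comparisons.

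Outside the members, the 9 genes with the highest correlation with the member mean within groups, predicted genes left out, were Cd74 (0.99), Cxcl9, Gbp6, H2-Ab1 and H2-Aa (each 0.98), and Slamf8, Tgtp2, H2-Eb1 and Gbp8 (each 0.97). Cd74, H2-Ab1, H2-Aa and H2-Eb1 encode the invariant chain and class II antigen-presenting molecules, and Slamf8 a receptor of myeloid cells. Over the 13703 other genes tested the median r was -0.03, and 75 genes exceeded 0.9.

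Markers of cell types moved with the members to different degrees. Ptprc ranked 126 by the same measure, with r = 0.89 over libraries (rho = 0.95). The 5 leukocyte markers gave r = 0.89, the 10 macrophage markers 0.85, the 8 T and NK cell markers 0.89 and the 4 dendritic cell markers 0.73. Neutrophil markers gave 0.49, and 0.24 without MYCi975 replicates 1 and 2. Endothelial markers gave 0.28, epithelial and carcinoma markers -0.06 and fibroblast markers -0.43, and dissociation and immediate early genes 0.48, or 0.20 without MYCi975 replicates 1 and 2. A line on Ptprc within groups took the SD of the member mean from 0.63 to 0.31. The member mean thus went with leukocyte markers and interferon gamma genes together, and these data give no separate measure of either.

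**Figure D5:**
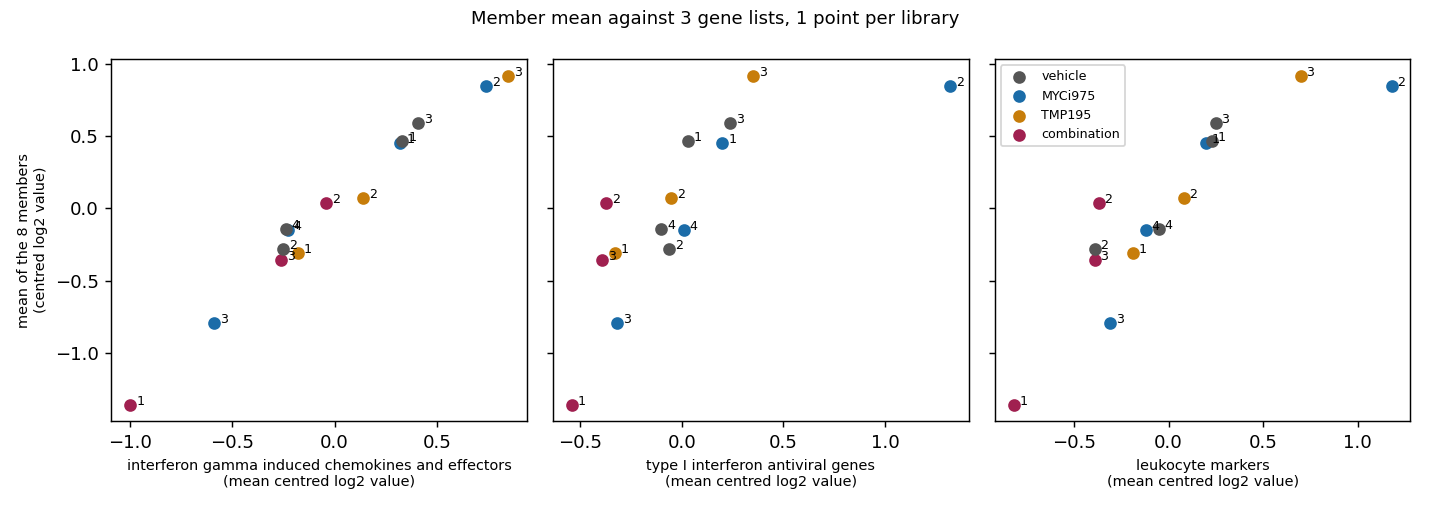
Each point is 1 of the 14 libraries, coloured by group and labelled by replicate, with the mean centred log2 value of the 8 members on the y axis and that of a gene list on the x axis. The points lie along a line for chemokines and effectors of interferon gamma (r = 0.99), scatter more for leukocyte markers (r = 0.89), and for type I antiviral genes (r = 0.78) MYCi975 replicate 2 stands far to the right.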

How the data were processed

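The authors deposited 1 table of normalised counts after a variance-stabilising transformation, on a log2 scale per the file headers and values, for 21152 genes in 14 libraries. Salmon (version not given) and the human build hg38 appear in the submitters' processing notes, while the table holds mouse Ensembl IDs. The build behind the values is therefore not settled, filters and scaling before deposit are not stated, and counts and depth are unknown. Of the IDs 20264 (95.8%) matched a symbol. Genes whose mean lay more than 1 log2 unit above the lowest value (13711) were fitted with limma 3.58.1 in R 4.3.3, with 1 mean per group over all 14 libraries and empirical Bayes moderation along an intensity trend (10 residual and 5.275 prior degrees of freedom). Tests were two-sided, with Benjamini-Hochberg adjustment over all genes tested and a threshold of 0.05. The script was tested on simulated data.

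The 8 members and all gene lists were chosen with earlier results of these data known. From each pathway list up to 2 genes with the smallest p against vehicle were named, with Ifng and Irf1 always, and the 9 genes most like the member mean. An item that the rule also names is not reported here. Gbp10, Mx1, Ifngr1 and Jak1 were named after their values were seen, as were the genes drawn beside the members. Gm12250 was named after its motif matches were seen. List genes are described by counts and medians, without a set test. The names Irgb10, Ifgga2 and Ifgga4 of the list of other GTPases are not symbols used in the table. Whether their genes stand there under other names, also names already in the list, was not checked. Promoter sequences, motif matches and gene order come from RefSeq (GRCm38.p6), and shared 31-base words from GENCODE M21 transcripts, which need not be the authors' annotation. Alternatives were no filter, a filter 2 log2 units above the lowest value, robust moderation, moderation without a trend, quantile normalisation, median centring, a fit to only the groups compared, library weights, a replicate block, Ptprc as a covariate and leaving out each library. Leaving out each MYCi975 or combination library for the list counts was added after seeing the data. The list counts with TMP195 were not repeated in this way.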

Additional observations from a re-analysis of the deposited data

How the results depend on the processing

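In limma's test 0 of the 8 members were called in any of the 6 comparisons under any alternative run, and the smallest adjusted p over these fits was 0.908 for MYCi975, 0.998 for TMP195 and 0.747 for the combination against vehicle, 0.312 and 0.669 for the combination against MYCi975 and TMP195, and 0.62 for the interaction. The only medians to move by more than the spread between replicates were those with Ptprc as a covariate, at 0.11 for combination minus MYCi975, -0.02 for combination minus TMP195 and 0.33 for the interaction. Leaving out each library gave medians of -0.29 to 0.23 for MYCi975, -0.30 to 0.37 for TMP195 and -1.02 to -0.29 for the combination against vehicle. Replicate numbers showed no clear pairing of the libraries. The correlation of deviations was -0.302 to 0.215 over 19 pairs of the same number (median 0.0364), with 6 over 0.1. Over 54 pairs of different number it was -0.25 to 0.337 (median -0.00365), with 14 over 0.1. The ranges overlap, so these values cannot exclude a pairing. With the replicate block 0 members were called, and the median of combination minus vehicle was -0.79.

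Signs changed as follows, with no gene called. With Ptprc as a covariate this held for all 8 members in the interaction and for 7 of 8 in combination minus MYCi975. For MYCi975 minus vehicle, median centring gave -0.00 in Gbp5 and Irgm2. Quantile normalisation gave -0.03 in Gbp5 and Irgm2 and -0.05 in Gbp7, library weights -0.18 in Gbp5, -0.14 in Gbp7 and -0.06 in Irgm2, and Ptprc as a covariate -0.31, -0.22 and -0.18. For TMP195 minus vehicle, quantile normalisation gave -0.01 in Gbp3 and Iigp1, and the replicate block -0.00 in Gbp2 and -0.02 in Gbp3 and Iigp1. Library weights gave -0.16 in Gbp2, -0.25 in Gbp3, -0.07 in Gbp5, -0.08 in Gbp7, -0.02 in Irgm2 and -0.15 in Iigp1, and Ptprc as a covariate -0.17, -0.21, -0.13, -0.11, -0.03 and -0.19. With Ptprc as a covariate, combination minus MYCi975 was 0.21 in Gbp2 and Igtp, 0.22 in Gbp5, 0.08 in Gbp7, 0.05 in Irgm1, 0.07 in Irgm2 and 0.15 in Iigp1. Combination minus TMP195 was 0.03 in Gbp5 and 0.04 in Irgm1. The interaction was 0.38 in Gbp2, 0.11 in Gbp3, 0.34 in Gbp5, 0.19 in Gbp7, 0.32 in Irgm1, 0.10 in Irgm2, 0.42 in Igtp and 0.33 in Iigp1.

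Leaving out each library, MYCi975 minus vehicle ran from -0.42 to 0.21 in Gbp2, -0.23 to 0.30 in Gbp3, -0.44 to 0.40 in Gbp5, -0.26 to 0.33 in Gbp7, -0.30 to 0.14 in Irgm1, -0.17 to 0.26 in Irgm2 and -0.33 to 0.20 in Iigp1. TMP195 minus vehicle ran from -0.31 to 0.41 in Gbp2, -0.46 to 0.38 in Gbp3, -0.29 to 0.46 in Gbp5, -0.23 to 0.37 in Gbp7, -0.36 to 0.18 in Irgm1, -0.06 to 0.42 in Irgm2, -0.30 to 0.20 in Igtp and -0.23 to 0.24 in Iigp1. The cause of these changes was not tested. The depth is unknown, and the 95% intervals give the precision.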
